A study of Ovis aries with 9 samples.

Results

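The 111 genes described here gave more reads in rumen epithelial (RE) cells treated with GA-017 (GA) than in untreated cells (Con), while their mean in cells treated with verteporfin (VP) lay near that of Con. They were chosen by measured values, as follows. Counts were divided by their library's total and expressed as CPM, and 11709 genes had a mean of at least 1 CPM in Con, GA or VP. The difference from Con was the log2 of the ratio of the mean CPM, with 0.1 added to each mean. A member had a GA difference of 0.8 or more, every GA well above every Con well, and a VP difference between -0.3 and 0.3. The GA conditions alone were met by 350 genes, of which 111 lay inside the VP band, 97 above it and 142 below it. The differences of the members in GA and VP are therefore a description of what the choice fixed, and no support is drawn from them.

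The cells were wild-type primary RE cells isolated from newborn Hu lambs. All wells were grown in the same DMEM medium with serum, epidermal growth factor, hydrocortisone, insulin, transferrin, cholera toxin and triiodothyronine. The GA group received 10 μM GA-017 for 24 h, the VP group 5 μM verteporfin for 24 h, and the Con group was left untreated, with 3 wells per group. The number of lambs behind the cells was not given in the sources used here, so the spread between wells is that of cultured cells and does not describe animals. Both compounds were diluted in DMSO, whereas Con is described as untreated, so an effect of the compound and one of its solvent cannot be told apart in a comparison with Con.

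The 2 compounds act on YAP1/TAZ. These are co-activators of transcription that enter the nucleus when the LATS kinases of the Hippo pathway do not phosphorylate them, and there they act mainly through TEAD proteins, which bind DNA. In stratified squamous epithelia such as that of the rumen, they are known for promoting the proliferation of basal cells. GA-017 inhibits the LATS kinases and so favours the entry of YAP1/TAZ into the nucleus, whereas verteporfin disturbs the transcription that they drive with TEAD.

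The count table lists Ensembl gene identifiers with no gene symbols. A RefSeq table of 35057 sheep genes of another assembly (ARS-UI_Ramb_v3.0) holds no Ensembl identifiers, and 0 of the 25962 identifiers could be paired with it. The function, position and sequence of the members were therefore not analysed here, and the epithelial label was not checked against marker genes. Only the 2 members with the largest GA difference among those with a mean of at least 5 CPM in GA are given by identifier, and the rest by their values. Library totals lay between 14458606 and 15814380 counts, so that a floor of 3 counts corresponded to between 0.19 and 0.207 CPM (counting error only).

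Together the members took about 0.4% of the reads in Con and VP and 0.9% in GA. Their summed level was 4214, 4187 and 4107 CPM in the Con wells. It was 8799, 8805 and 8873 CPM in the GA wells, and 4478, 4446 and 4468 CPM in the VP wells. The wells of a group lay close together, with 4170 ± 55.6 CPM in Con, 8826 ± 41.0 CPM in GA and 4464 ± 16.6 CPM in VP (SD, n = 3). In bulk cultures like these, a change in the number of cells that carry a transcript and one in the amount per cell cannot be told apart. A single member held a large part of these sums. Without it, the sums ranged from 2741 to 2794 CPM in Con, from 6183 to 6265 CPM in GA and from 2755 to 2801 CPM in VP. The VP and Con ranges overlapped without this member, while with it every VP well lay above every Con well.

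Most of the members rose by a modest amount in GA. The median GA difference was 1.07 on the log2 scale (2.10-fold), the quartiles were 0.92 and 1.43, and the largest value was 3.99. The difference was 2 or more, that is at least 4-fold, in 13 members, from 1 to under 2 in 54, and under 1 in 44. Over all genes tested, the median was -0.03. In 93 of the 111 members the lowest GA well exceeded the highest Con well by more than 0.5 on the log2 scale, and in 33 by more than 1, while in 3 the gap was under 0.1. By the rule every GA well of a member lay above every Con well. A single GA well could still carry the mean over the limit of the rule. Of the 111 members, 101 still met the rule without GA well 1, 107 without GA well 2 and 102 without GA well 3. The highest of the GA wells was well 1 in 39 members, well 2 in 29 and well 3 in 43. The lowest was well 1 in 49 members, well 2 in 36 and well 3 in 26. In 105 members all 3 wells of at least one group reached 1 CPM.

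**Figure D1:**
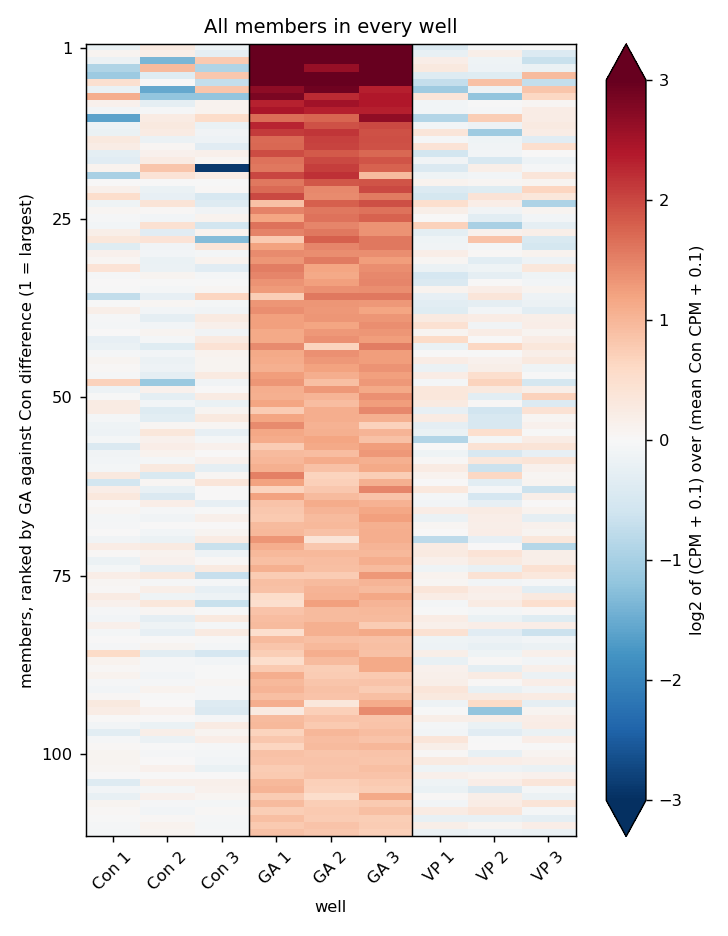
Heat map of all 111 members (vertical axis, ranked by the difference between GA and Con) in the 9 wells (horizontal axis). Colour gives the log2 of the ratio of CPM + 0.1 in a well to the mean Con CPM + 0.1, with colours saturated beyond 3 either way, and the 3 GA wells are red in all ranks while the Con and VP wells scatter around 0, more widely among the first ranks, where 6 of the first 8 members had at most 11 counts in a Con well.

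ENSOARG00020023275 had the largest difference. It was counted 62, 85 and 60 times in the Con wells, 1176, 1126 and 1102 times in the GA wells, and 52, 66 and 72 times in the VP wells. In CPM these were 3.98, 5.53 and 4.15 in Con, 78.0, 73.0 and 71.2 in GA, and 3.38, 4.44 and 4.55 in VP. All GA wells stood far above the other 6, and the Con and VP wells overlapped. The mean of 4.55 ± 0.853 CPM in Con rose 16.3-fold to 74.1 ± 3.52 CPM under GA, and was 4.12 ± 0.649 CPM in VP (SD, n = 3). Its log2 fold change in GA was 4.05 with a SE of 0.13, and edgeR's quasi-likelihood test gave FDR = 4.86e-12 after Benjamini-Hochberg adjustment. In VP it was -0.10, with a 95% interval from -0.60 to 0.41 (edgeR FDR = 0.762), and between GA and VP it was 4.12, with an interval from 3.83 to 4.41.

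ENSOARG00020000114 followed the same pattern at fewer reads. It had 2.50, 2.67 and 1.94 CPM in the Con wells, 32.0, 27.7 and 30.4 CPM in the GA wells and 2.01, 2.69 and 1.77 CPM in the VP wells. The lowest GA well held 427 counts and the highest well of Con and VP 41, with no overlap between GA and either group. The mean rose 12.7-fold, from 2.37 ± 0.384 to 30.0 ± 2.17 CPM, against 2.16 ± 0.477 CPM in VP (SD, n = 3). Its log2 fold change came to 3.68 under GA with a SE of 0.16 (edgeR FDR = 1.33e-10). Under VP it came to -0.09, with a 95% interval from -0.75 to 0.57 (edgeR FDR = 0.83), and between GA and VP to 3.75, with an interval from 3.36 to 4.14.

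Ranks 3 to 8 of the GA difference were held by genes with very few reads. These 6 members had from 0 to 11 counts in a Con well, from 15 to 55 in a GA well and from 0 to 12 in a VP well. Their GA wells did not overlap with Con, but the size of a fold change at such counts depends on the value added, and none is given. In 1 of them every Con well was at or under 3 counts, with 2, 1 and 0 counts in Con, 21, 19 and 27 in GA and 0, 3 and 0 in VP.

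Among the members raised over 4-fold, the one with the most reads had 122, 125 and 139.7 CPM in the Con wells, 707, 652 and 645 CPM in the GA wells, and 121, 125 and 150.0 CPM in the VP wells. Its GA wells were far above the rest and its VP wells spread around those of Con, with a log2 fold change of 2.41 in GA (SE 0.074) and 0.08 in VP (edgeR FDR = 0.398). Another had 35.8, 27.2 and 35.0 CPM in Con, 162, 187 and 174 CPM in GA, and 30.7, 32.4 and 34.0 CPM in VP. Here all VP wells lay within the range of the Con wells.

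The member with the most reads of all behaved differently. It had 1435, 1394 and 1366 CPM in the Con wells, 2616, 2549 and 2608 CPM in the GA wells, and 1708, 1690 and 1667 CPM in the VP wells. The groups did not overlap, and VP lay between Con and GA. Its log2 fold change was 0.92 in GA (SE 0.064) and 0.32 in VP (SE 0.055, edgeR FDR = 0.000135), so that by this test it rose in both treatments, although its VP value lay inside the band of the rule. It was the member without which the VP and Con sums above overlapped. The 1 member called lower in VP had 278, 289 and 272 CPM in Con, 525, 472 and 468 CPM in GA, and 241, 239 and 231 CPM in VP. Its VP wells all lay below its Con wells (log2 fold change -0.19, edgeR FDR = 0.0177) and its GA wells all above them.

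**Figure D2:**
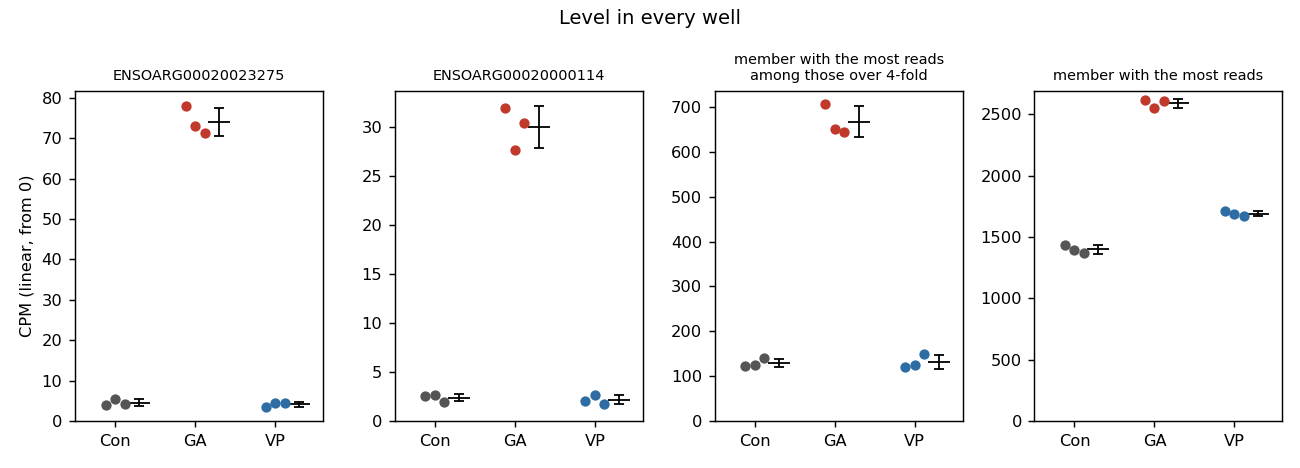
CPM (linear axes from 0, a separate scale for each gene) of 4 members in the 3 wells of Con, GA and VP, where points are wells and the bars beside them give the mean and SD of 3 wells. In the first 3 panels the VP wells lie among or near the Con wells, while in the last the VP wells, between 1667 and 1708 CPM, lie above all Con wells, between 1366 and 1435 CPM.

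Over the whole list, 107 of the 111 members passed FDR < 0.05 as higher in GA than in Con by edgeR, where 17.6% of all genes tested did. With the study's additional threshold of a log2 fold change above 1, 73 members passed, where 2.14% of all genes did. Every GA well lay above every Con well in all members by the rule, and in 21.0% of the genes tested. The rule used this same comparison, so these counts only show how far the rule and the edgeR test coincide. The 4 members that missed the FDR had at most 1.61 CPM on average in GA, and their FDR lay between 0.0552 and 0.118 by edgeR. The median log2 fold change was 1.15 in the members and 0.00 in all genes tested after TMM scaling.

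**Figure D3:**
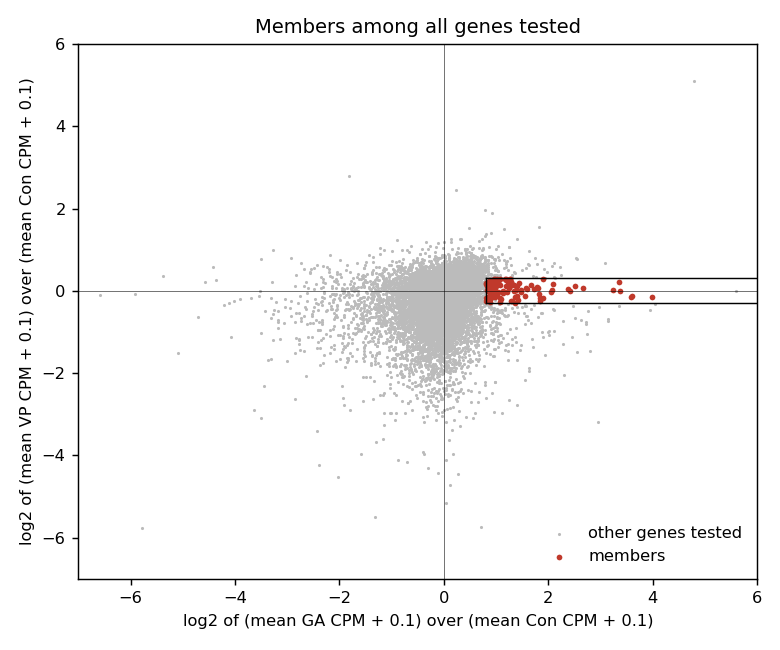
Differences from Con in GA (horizontal axis) and VP (vertical axis), each the log2 of the ratio of mean CPM + 0.1, for the 11709 genes tested, with the 111 members in red and the limits of 0.8 for GA and -0.3 and 0.3 for VP drawn as lines. The 8 grey points inside the lines are genes left out because a GA well did not exceed every Con well.

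The VP difference of the members ranged from -0.29 to 0.30, with a median of 0.03, where the median over all genes tested was -0.09. By edgeR, 8 members passed FDR < 0.05 as higher in VP than in Con, where 23.5% of all genes tested did, and 1 as lower, where 28.2% did. The band of the rule holds these shares down, and nothing further is read from them. These 9 members had between 28.3 and 1398 CPM in Con, with log2 fold changes between 0.17 and 0.33 in size and FDR between 0.000135 and 0.0434 by edgeR. The count changed with single wells. It was 4 without Con well 2, 5 without VP well 1 and 4 without VP well 2, and 9, 8 and 11 without Con well 1, Con well 3 and VP well 3. Over all genes tested, 6050 were called with all wells, and from 5003 to 6436 with a library left out.

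The rule took the mean of the VP wells, so the place of the single wells is partly fixed by it and is given as a description. In 92 members the VP and Con wells overlapped. Every VP well lay above every Con well in 12 members (25.1% of the genes tested) and below in 7 (33.2% of the genes tested). The spread between VP wells, as the SD of log2(CPM + 0.1), had a median of 0.080 in members with 10 CPM or more in Con, against 0.101 in all genes tested at that depth. It was 0.079 against 0.123 in GA, where the demand for separate GA and Con wells bears on the spread.

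A VP mean near Con does not show that VP left a gene unchanged, and how much the data allow depended on the reads per gene. The half-width of the 95% interval of the VP log2 fold change had a median of 0.47 over the members and ranged from 0.12 to 3.35. The interval held 0 in 98 members. It lay wholly within 0.3 either way in 9 members, within 0.5 in 38 and within 1 in 86. In 34 members it reached 0.8 or more, the GA threshold of the rule, so that for these a VP rise as large as the least GA rise lay within the interval.

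CPM are not divided by gene length here, so they give the reads behind a gene and not its level relative to other genes. In Con, 23 members had under 1 CPM, 47 from 1 to under 10, 34 from 10 to under 100 and 7 at least 100. The median half-width of the VP interval narrowed along these classes from 1.24 to 0.57, 0.23 and 0.13 on the log2 scale. All 9 members called in VP fell in the last 2 classes, with 5 of 34 (57.8% of all genes tested in that class) and 4 of 7 (75.3%). By edgeR, 0 of the 23 members below 1 CPM were called, where 15.5% of all genes in the class were, and 0 of the 47 from 1 to under 10 CPM, where 29.8% were. The band of the rule holds these counts down in every class. Over all members, 13 had an unadjusted edgeR p under 0.05 in VP, and DESeq2 called 11. The members held fewer reads than the genes tested, with a median of 5.33 CPM in Con against 22.8 CPM. The median GA difference fell along the same classes, from 1.68 to 1.07, 0.98 and 0.90, and genes under 1 CPM in Con could enter only by reaching 1 CPM in a treated group.

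**Figure D4:**
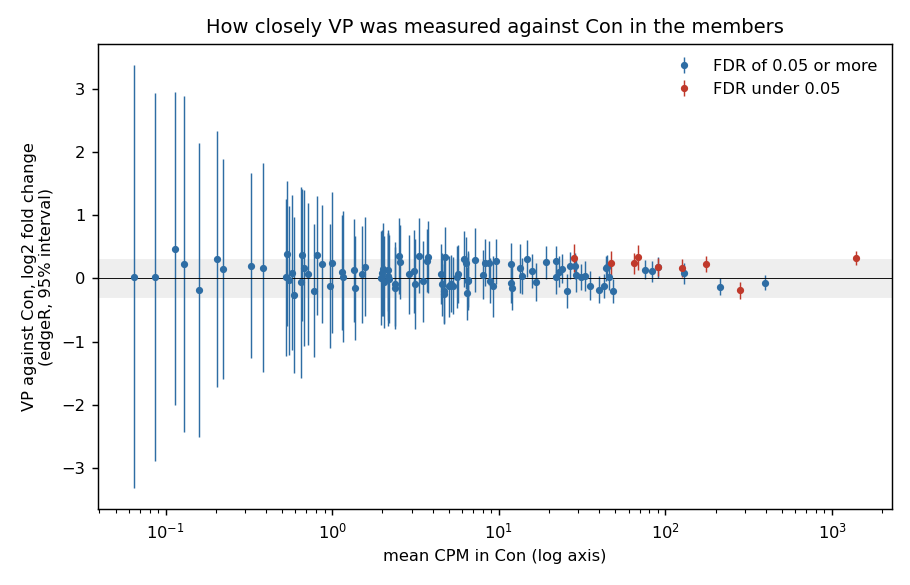
VP against Con log2 fold change (vertical axis) of the 111 members with its 95% interval from edgeR, against the mean CPM in Con (horizontal log axis), with members at FDR < 0.05 in red and the band from -0.3 to 0.3 in grey. Intervals reach 3.35 either way at the fewest reads and 0.12 at the narrowest, and the 9 red points all lie above 28 CPM.

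The band of the VP rule was centred on no change in CPM, whereas the VP difference of all genes tested varied with read depth. Its median was 0.31 in the 206 genes under 1 CPM in Con, which could be tested only by reaching 1 CPM in a treated group, -0.29 in genes from 1 to under 10 CPM, -0.06 from 10 to under 100 CPM and 0.09 at 100 CPM or more. All 23 members under 1 CPM lay below the VP median of genes at their depth, as the band required. That median, 0.31, lay above the upper limit of 0.3. The 47 members from 1 to under 10 CPM all lay above the VP median of genes at their depth, which their band nearly fixed, with a median of 0.01. In the next class 26 of 34 members lay above it, and among those of at least 100 CPM 3 of 7 did. The band around Con in CPM thus stood low, high or in the middle among genes of like depth, according to the class.

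Set directly against VP, 105 members passed FDR < 0.05 as higher in GA by edgeR in a fit of all 9 libraries, where 28.0% of all genes did. With a log2 fold change above 1 in addition, 60 members passed, where 10.5% of all genes did. Every GA well exceeded every VP well in 109 members, where 32.5% of genes did. The log2 fold change between GA and VP was 0.56 or more in all members, with a median of 1.06, and its 95% interval lay above 0 in 109 of them. These values follow from the rule, which read both treatments against the same Con wells. The comparison of GA with VP itself was a direct one between 2 compounds at different doses (10 and 5 μM).

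To read the pattern in wells that took no part in picking the genes, the rule was applied to 2 wells of each group. The genes so chosen were then read in the wells left out. The rule itself was set with earlier results of these data known, so these wells are not independent of its limits. Without the wells numbered 1, 126 genes were chosen, and in the wells left out their median GA difference was 0.91, against 1.02 in the wells that chose them and 0.03 in all genes tested. GA exceeded Con in 118 of the 126, or 93.7%, where it did so in 52.4% of all genes. The difference reached 0.8 in 75 of the 126, where 5.24% of all genes did. Without the wells numbered 2, 126 genes were chosen, with a median of 0.99 in the wells left out, and 87 reached 0.8, where 4.49% of all genes did. Without the wells numbered 3, 129 were chosen, with a median of 0.93, and 79 reached 0.8, where 5.14% of all genes did. The medians in the wells that did the choosing were 1.04 and 1.05 in these last rounds, so that each time the wells left out showed a rise in GA slightly smaller than that in the wells used. Of the genes chosen, 70, 87 and 75 were among the 111. The wells were matched by number only to name them, the GA and VP differences share the Con well, and no test was made.

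The VP part of the rule held less sharply in the wells left out. The VP difference had medians of 0.07, 0.02 and -0.01 in the wells numbered 1, 2 and 3. It lay within 0.3 either way in 69 of 126, 64 of 126 and 74 of 129 genes, that is in 54.8%, 50.8% and 57.4%, where 43.7%, 40.3% and 43.0% of all genes tested did. A VP difference of 0.8 or more was found in 5, 6 and 5 of the genes. A single well per group carries more counting error than the mean of 3, and these shares include it. GA exceeded VP in 112, 121 and 124 of the genes in the wells left out, that is in 88.9%, 96.0% and 96.1%, where it did so in 55.6%, 54.9% and 51.1% of all genes.

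**Figure D5:**
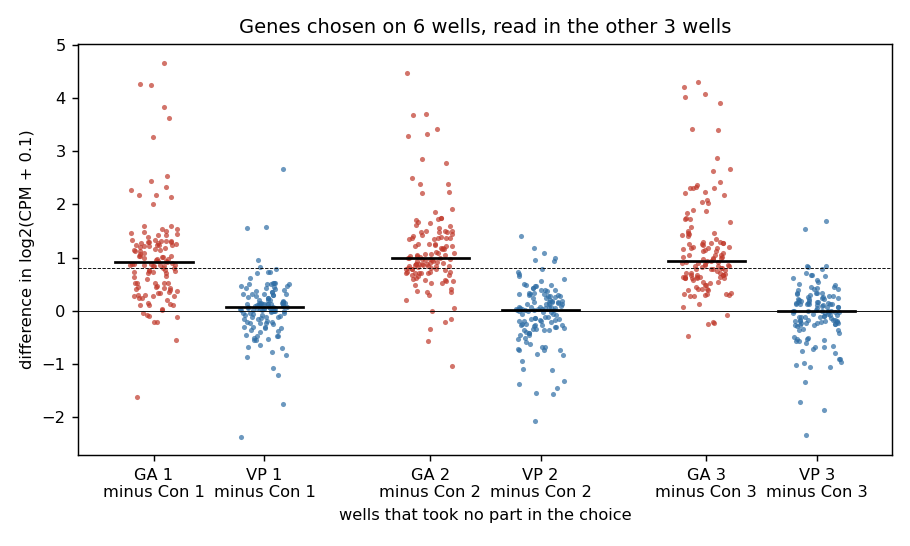
Genes chosen by the rule on 2 wells per group (126, 126 and 129 genes), read in the wells left out, with each point a gene, the black bar the median, and the vertical axis the difference in log2(CPM + 0.1) between the GA or VP well and the Con well of the same number. The GA medians are 0.91, 0.99 and 0.93, above the dashed line at 0.8, and the VP medians lie between -0.01 and 0.07.

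The limits of the rule cut through a continuous range of values. The nearest genes outside a limit are given here among those that met all the other conditions of the rule. The members closest to the GA limit had differences of 0.8016, 0.8041 and 0.8043, and the nearest outside had 0.7988, 0.7956 and 0.7934. At the upper VP limit the values were 0.2976, 0.2955 and 0.2952 inside and 0.3001, 0.3022 and 0.3114 outside. The gene just outside, at 0.3001, had 2025, 2063 and 1898 CPM in the Con wells, 4523, 4632 and 4597 in the GA wells and 2463, 2527 and 2381 in the VP wells. At the lower limit they were -0.2887, -0.2799 and -0.27 inside and -0.3002, -0.3039 and -0.3125 outside. Another 8 genes met both difference limits but had overlapping GA and Con wells, and 1 of these was counted 213 times in GA well 1 and 0 times in every other well.

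Membership also depended on how the libraries were scaled. On TMM effective library sizes 120 genes met the rule, of which 98 were among the 111, and on DESeq2-type size factors 122 did, of which 95 were. With cyclic loess normalization, an alternative added after the values were seen that removes trends over read depth, 132 genes met it and only 59 of the 111 were among them. Under that scaling 109 of the members still had a GA difference of 0.8 or more, but 60 still had a VP difference inside the band. The median VP difference over all genes moved from -0.09 to 0.05, and that of the members from 0.03 to 0.26. Nearly all members thus kept the GA limit under these 3 scalings, with all 111 at 0.8 or more on TMM and DESeq2-type scaling. Fewer kept the VP band. The totals of 120, 122 and 132 include genes that were not among the 111. How many genes met the GA conditions alone under each scaling was not counted.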

How the data were processed

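RNA of 9 wells of RE cells (3 Con, 3 GA, 3 VP) was sequenced as paired reads on an Illumina HiSeq. Per the labels and the study's methods, the authors filtered reads with CASAVA 1.8, used HISAT2 to map them to Oar_rambouillet_v1.0, and deposited un-normalized counts of reads for each Ensembl gene and library. The counting tool and annotation are not given in the sources used here.

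Genes tested were the 11709 that the rule could take. Groups were compared in edgeR (version 4.0.16, under R 4.3.3) by glmQLFit and glmQLFTest on TMM-scaled counts, in the 6 libraries of GA or VP and Con, and in all 9 for GA against VP. P-values were adjusted by the Benjamini-Hochberg method over all genes tested, and 95% intervals were the log2 fold change with its standard error (its size over the square root of F) and the fit's degrees of freedom. The study used DESeq2 (1.42.0 here), which was an alternative. Other alternatives were other scalings, filters, added constants and limits of the rule, a fit of all 9 libraries, the replicate number as a block and each library left out in turn, with cyclic loess and a mean of log2 values added after the data were seen. The fit was tried on simulated counts with the same spread for every gene, a simpler setting than these wells. That checks how the fit was set up and not its error rates in these data. Each well was kept as a separate sample. The counts of any pair of wells in a group were further apart than sampling alone gives (chi-square per degree of freedom from 2.87 to 14.1). The largest values were those of GA well 1 with wells 2 and 3 (13.6 and 14.1), against 2.92 between GA wells 2 and 3. These values cannot tell culture from library preparation and do not show that the wells are independent. P-values measure only the spread between these wells.

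The members and the rule were chosen with earlier results of these data known. Members were to be named by the size of their GA difference (mean GA of 5 CPM or more), by reads, by gene list, by distance from the limits and by VP test. As no identifier could be paired with a symbol, the first 2 by difference are given by identifier. The gene lists and promoter motifs were not run for that reason. Library totals give a floor of 3 counts, about 0.2 CPM.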

Additional observations from a re-analysis of the deposited data

How the results depend on the processing

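Of 183 values recomputed under other settings, 174 kept their direction and side of the threshold or stayed within 1.5 times their count. For the number of members this compares the counts alone, whichever genes made them up. Many of the values are fold changes of the 2 members given by identifier, which were picked for their large GA difference. The number of members was 67, against 111, with a GA difference of 1 or more, by construction fewer genes. It ranged from 108 to 131 with a library left out in turn, and from 80 to 132 under the other settings. The genes making up the list changed more than its size. With a library left out, between 84 (without Con well 3) and 107 (without GA well 2) of the 111 were kept. With 1 added to the mean CPM, 85 were kept, and with cyclic loess 59. The members called in VP against Con numbered 9, ranged from 4 to 11 with a library left out, and were 21 with the replicate number as a block. The calls over all genes numbered 6050, ranged from 5003 to 6436 and were 7243 in these settings. Members called in GA against Con ranged from 100 to 107 and in GA against VP from 98 to 105 with a library left out. Over all genes these calls ranged from 1403 to 2414 and from 2898 to 3315. In VP, the log2 fold change of ENSOARG00020023275 ranged from -0.17 to 0.072 and that of ENSOARG00020000114 from -0.28 to 0.069 with a library left out, and neither was called. For these moves the cause was not tested.

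The wells share only a number. Of 9 same-numbered pairs of wells in different groups, 4 had a correlation of their deviations above 0.1 (range -0.33 to 0.43), and a well deviated most like its own number in 7 of 18 comparisons. Pairs with different numbers ranged from -0.32 (Con well 1 and VP well 3) to 0.36 (Con well 3 and GA well 1). GA well 1 and VP well 3 had 0.32. Wells of different groups thus also deviated together under other numbers, which the replicate block does not cover, and the cause was not tested. With the replicate block, 1610 genes were higher in GA than in Con against 2055 without it, and 106 members were called. In GA against VP, 103 members were called with the block, where 3244 of all genes were. At the depth of these libraries, members below 1 CPM in Con have VP intervals too wide to order them.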
